A study of Mus musculus with 6 samples.

Results

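The nuclear lamina genes Lmna, Lmnb1, Lmnb2, Lbr, Emd, Tmpo, Banf1 and Zmpste24 were examined in 3 mouse endothelial progenitor cell lines. All probes carrying 1 of these 8 gene names were taken, which gave 22 of the 25697 probes on the array and 8 of its 18138 gene names. The group was chosen by gene name around Lmna, which itself was selected on its measured log2 differences, among the lowest of all probes in EPC_Late relative to the other lines. The differences of Lmna in EPC_Late are therefore given as a description without a test, and they support nothing further.

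The 3 lines came from lung tissue of athymic nude mice and were grown in endothelial medium. EPC is the line grown from sorted Flk-1+/c-Kit+/CD45- cells and was harvested at passage 3 to 6. EPC_acLDL was labelled with fluorescent acetylated LDL, sorted for positive cells, replated and also harvested at passage 3 to 6. EPC_Late is the EPC_acLDL line carried to passage 16 to 20, so it shares the sort and differs from EPC in both sort and passage. Each line had 2 arrays. The sources give both duplicate runs and separate experiments for these, and no separate cultures are named, so p-values measure the spread between arrays, which may be technical. The arrays read RNA of whole cultures, in which fewer cells of a type and less RNA per cell cannot be told apart. The direction of every difference follows the array labels. For most of the genes the study lists as changed that could be tested here, Sfrs1 and E2f1 among them, the listed direction is the reverse of that in the deposited values, and which is right was not settled by the sources used here. With the signs turned, lower would read higher, and a rank from the lowest would be the same rank from the highest.

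The nuclear lamina is a meshwork of intermediate filament proteins lining the inner face of the nuclear envelope. Lmna encodes lamin A and lamin C by alternative splicing, and Lmnb1 and Lmnb2 encode the B-type lamins. A-type lamins rise with differentiation and tissue stiffness in many cell types, while B-type lamins are present in nearly all cells. Lbr, Emd (emerin) and Tmpo (the lamina-associated polypeptides) tie the lamina to chromatin at the inner nuclear membrane. Banf1 encodes barrier-to-autointegration factor, which bridges DNA and LEM-domain proteins such as emerin. Zmpste24 is the protease that finishes the maturation of prelamin A.

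A probe was called above background on an array when its detection p-value, its rank against the negative control probes, was below 0.05. Of the 22 lamina probes, 19 (86.4%) were above background on none of the 6 arrays, as were 88.8% of all probes. The other 3 were 2 probes of Lmna and 1 of Banf1. A below-background probe could not be read as a silent gene on these arrays. Whether every signal stands beside the right probe name in the deposited table could not be checked without probe sequences, so the gene behind each value, those of Lmna and Banf1 included, rests on the names in the file. Among 12 genes used by nearly all cells, a list chosen after the values were seen, 16 of 26 probes were above background on no array, and 7 genes had no probe above it. Gapdh, a glycolytic enzyme, stayed between 270.5 and 301.5 intensity units on its only probe, whereas Ppia, a peptidyl-prolyl isomerase, lay between 64413.1 and 70814.7. The median intensity of an array was 304.6 to 358.7, and 2177 to 2365 probes per array were above background. Of 16 probes for 12 endothelial genes, only that of Kdr (Flk-1) was above background, on 6 arrays, and Pecam1 (CD31) and Cdh5 were not.

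**Figure D1:**
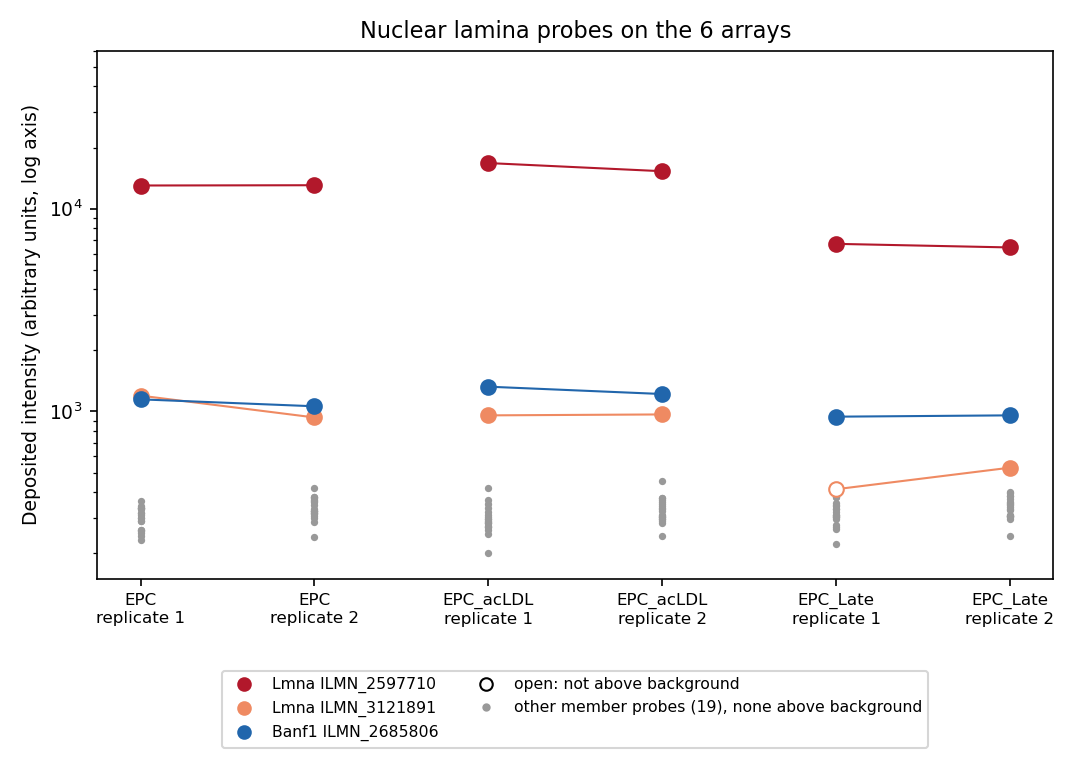
Deposited intensity of each lamina probe (log axis, arbitrary units) on the 2 arrays of each line, with the 3 probes that entered the tests in colour, joined within a line, and the other 19 in grey. Lmna probe ILMN_2597710 sits at 12999.6 to 16770.0 in EPC and EPC_acLDL and at 6435.9 and 6703.7 in EPC_Late, and all grey points lie at or below 454.2.

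The first Lmna probe, ILMN_2597710, was above background on 6 of 6 arrays, each at a detection p-value of 0. It read 12999.6 and 13040.3 intensity units in EPC, 16770.0 and 15288.5 in EPC_acLDL, and 6703.7 and 6435.9 in EPC_Late. Both EPC_Late arrays were lower than all 4 arrays of the early lines, and both EPC_acLDL arrays were higher than both EPC arrays. Such separation was common, since the normalized signal was wholly lower in EPC_Late than in EPC for 28.6% of the 2333 probes tested, wholly lower than in EPC_acLDL for 28.6%, and wholly higher in EPC_acLDL than in EPC for 25.9%. The intensities were then corrected for background, given an offset of 16 and quantile normalized on the log2 scale, which is the scale of all log2 values below. The log2 means were 13.63 (SD 0.01) for EPC, 13.78 (SD 0.05) for EPC_acLDL and 12.67 (SD 0.03) for EPC_Late, n = 2 each. EPC_Late was thus 1.95-fold lower than EPC (log2 difference -0.96) and 2.15-fold lower than EPC_acLDL (log2 difference -1.11).

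The second Lmna probe, ILMN_3121891, is the one whose values singled out the gene. It read 1197.0 and 934.5 intensity units in EPC, 957.0 and 967.1 in EPC_acLDL, and 413.8 and 528.4 in EPC_Late. EPC_Late was again below every array of the early lines, but 1 of its 2 arrays was not above background (detection p-value 0.0777). The log2 means were 9.60 (SD 0.33) for EPC, 9.17 (SD 0.03) for EPC_acLDL and 6.89 (SD 0.69) for EPC_Late, n = 2 each. The log2 difference was -2.71 from EPC and -2.29 from EPC_acLDL, ranks 2 and 1 from the lowest of 2333 probes as labelled, places that rest on signals near background in EPC_Late. Just beside it in the first of these orders were Syncrip, an RNA-binding protein, at -2.49, and LOC100044221, which was above background on neither EPC_Late array and was at least 7.62-fold lower there than in EPC, with the lowest signal above background as the floor. With every signal raised to the lowest signal above background on its array, a setting chosen after the values were seen, the Lmna differences were -2.52 and -2.09.

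The 2 probes of Lmna had the same direction in EPC_Late and unequal size, and the size of the second depended on the background correction. Without background correction its log2 difference from EPC was -1.30, beside -0.93 for the first probe, and from EPC_acLDL it was -1.01 beside -1.07. On the deposited intensities the ratio of the means, EPC_Late over EPC, was 0.505 for the first and 0.442 for the second probe. The file gives them different transcript keys, and which splice form each reads is not stated in the sources used here. The other 3 Lmna probes, which share the key of the first, were above background on no array (intensities of 261.4 to 397.0) and gave no fold change.

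**Figure D2:**
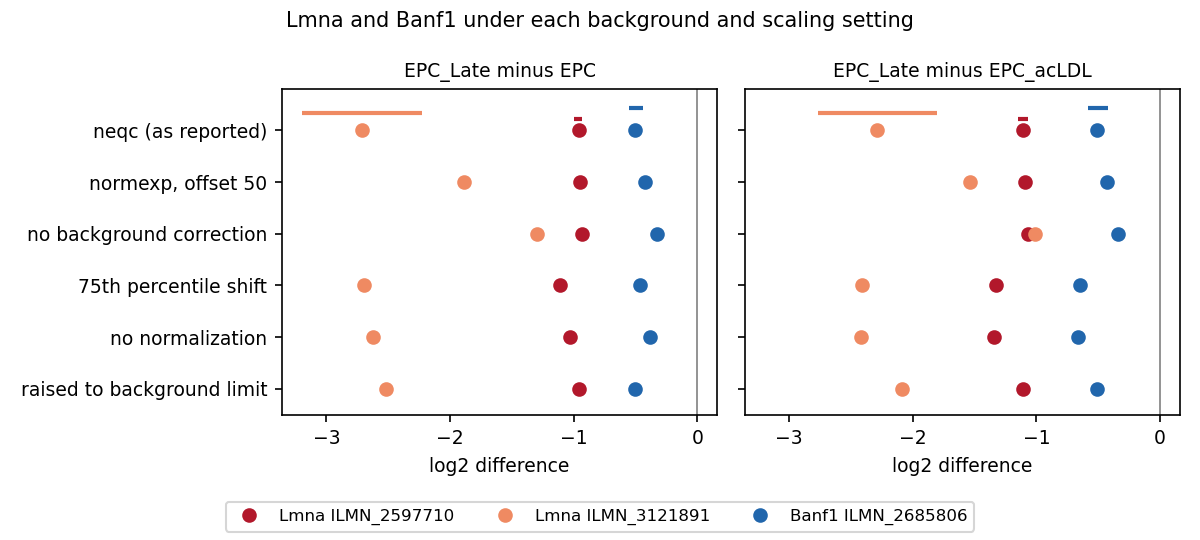
Log2 difference of EPC_Late from EPC (left) and from EPC_acLDL (right) for the 3 lamina probes tested, under the reported background correction and scaling and 5 others, with bars above the first row for the range when each array was left out. All points lie below 0, and ILMN_3121891 moves from -2.71 to -1.30 on the left while ILMN_2597710 stays between -1.11 and -0.93.

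Between EPC_acLDL and EPC, a comparison that did not choose the gene, no lamina probe passed the test, and the 2 Lmna probes pointed in opposite directions. The test was limma in 1 fit of all 6 arrays over the 2333 probes that both arrays of some line read above background, with Benjamini-Hochberg adjustment over all of them. Of these probes, 3.3% were called in this comparison. The first probe had a log2 difference of 0.14 (SE 0.11, 95% interval -0.12 to 0.40, adjusted p = 0.51 from limma). The second probe had -0.42 (SE 0.32, 95% interval -1.20 to 0.35, adjusted p = 0.51 from limma). The intervals leave room for a change of Lmna in either direction at the sort for acLDL uptake. On the deposited scale the first probe was 1.23 times as intense in EPC_acLDL as in EPC, and without normalization between arrays its log2 difference was 0.30, where the median of the 2333 probes tested, corrected for background and unnormalized, was itself 0.25.

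Banf1 was read by 4 probes, of which ILMN_2685806 was above background on all 6 arrays. It read 1147.8 and 1060.9 intensity units in EPC, 1325.2 and 1219.2 in EPC_acLDL, and 942.9 and 957.0 in EPC_Late. The EPC_Late arrays were the lowest. The EPC_acLDL arrays were the highest before normalization and overlapped those of EPC after it. The log2 means were 9.71 (SD 0.08) for EPC, 9.72 (SD 0.10) for EPC_acLDL and 9.21 (SD 0.01) for EPC_Late, n = 2 each. Banf1 fell in EPC_Late by 0.50 on the log2 scale from EPC, or 1.41-fold (SE 0.12, 95% interval -0.78 to -0.21, adjusted p = 0.025 from limma). Relative to EPC_acLDL the log2 difference was -0.51, or 1.42-fold (SE 0.12, 95% interval -0.79 to -0.23, adjusted p = 0.026 from limma). These comparisons share the EPC_Late arrays. Without background correction the differences were -0.33 and -0.34, and on the deposited intensities the ratios of the means were 0.860 and 0.747.

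Banf1 was the only lamina probe besides those of Lmna that could be called, and calls of its kind were common. In EPC_Late, 13% of all probes tested were called lower than EPC and 11.5% lower than EPC_acLDL. Its call from EPC was lost in the fits without EPC replicate 1 (adjusted p = 0.10 from limma), EPC replicate 2 (0.062), EPC_Late replicate 1 (0.090) or EPC_Late replicate 2 (0.091), where the log2 difference stayed between -0.55 and -0.44, and it was also lost with 2 other scalings and without the detection filter. The call from EPC_acLDL was likewise lost when any 1 array of either line was left out (adjusted p = 0.079 to 0.15 from limma), with log2 differences of -0.58 to -0.42. In these fits 1 line was left with 1 array. Between EPC_acLDL and EPC the log2 difference of Banf1 was 0.01 (SE 0.12, 95% interval -0.27 to 0.30, adjusted p = 0.97 from limma). The other 3 Banf1 probes were above background on no array. Of these, ILMN_2698392 came closest of all 19 undetected lamina probes, at a lowest detection p-value of 0.0526.

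The promoters of these 2 genes are shown because their probes were the ones that could be measured and both were lower in EPC_Late. Each is the 250 bases before the more upstream of 2 starts given for the gene in a promoter table from RefSeq (GRCm38.p6, minus strand), printed 5′ to 3′, with matches to a GC box (GGGCGG or its reverse complement, the site of Sp-family factors) in capitals.
Lmna, chr3:88503353-88503602: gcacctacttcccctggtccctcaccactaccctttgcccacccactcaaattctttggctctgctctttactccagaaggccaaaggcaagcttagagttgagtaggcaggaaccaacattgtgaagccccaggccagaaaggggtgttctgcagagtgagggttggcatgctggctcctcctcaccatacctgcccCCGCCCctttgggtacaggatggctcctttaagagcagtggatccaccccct
Banf1, chr19:5366877-5367126: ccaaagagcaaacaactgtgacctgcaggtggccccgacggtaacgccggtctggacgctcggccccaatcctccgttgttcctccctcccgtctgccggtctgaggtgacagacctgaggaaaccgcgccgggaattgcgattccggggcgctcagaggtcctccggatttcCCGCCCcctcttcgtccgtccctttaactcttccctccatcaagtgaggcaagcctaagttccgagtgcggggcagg
Each window held 1 GC box, as at least 1 was held by 32.7% of the 32851 promoter windows of this length. Neither held an AP-1 site (TGACTCA on either strand, in 4.46% of windows) or a CArG box, the site of serum response factor (in 1.47% of windows). The arrays do not show which start was used.

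The B-type lamins and the membrane partners of the lamina could not be followed. Lmnb1 (2 probes) lay between 248.7 and 385.3 intensity units over all arrays, with a lowest detection p-value of 0.117. Lmnb2 (1 probe) lay between 257.5 and 307.1, and Lbr (1 probe), the lamin B receptor, between 242.3 and 327.3. Emd (2 probes) lay between 281.7 and 330.3 and Tmpo (3 probes) between 250.5 and 347.1. Zmpste24 (4 probes) lay between 272.5 and 377.7, with a lowest detection p-value of 0.17. None of the 13 probes of these 6 genes was above background on any array, so no level and no fold change is given, and a ratio of A-type to B-type lamin cannot be formed.

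**Figure D3:**
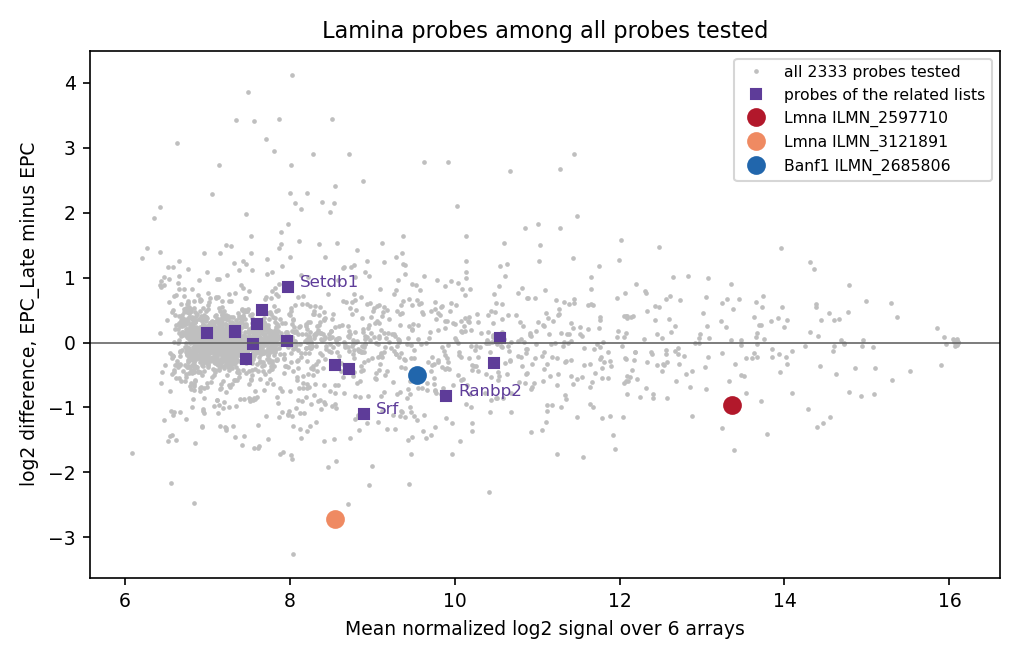
Log2 difference of EPC_Late from EPC against the mean log2 signal over 6 arrays for the 2333 probes tested (grey), the lamina probes (circles) and the probes of related nuclear genes (squares). Lmna probe ILMN_2597710 lies at -0.96 and Banf1 at -0.50, and ILMN_3121891 at -2.71 has rank 2 from the lowest.

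Genes that work with the lamina were read from 7 lists. Of 16 genes of the nuclear envelope and the LINC complex, which links the lamina to the cytoskeleton, 2 had a probe that could be tested. Neither was called in any comparison. Of all probes tested, 3.3% were called in EPC_acLDL against EPC, 23.9% in EPC_Late against EPC and 20.9% in EPC_Late against EPC_acLDL. Nrm, an inner nuclear membrane protein, had a log2 difference of -0.35 between EPC_Late and EPC (SE 0.16, 95% interval -0.73 to 0.04, adjusted p = 0.18 from limma). Ankle2, a LEM-domain protein that acts on Banf1 at mitotic exit, had 0.15 (SE 0.16, adjusted p = 0.59 from limma). No probe of the 4 genes for prelamin A farnesylation, cleavage and methylation was above background.

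Of the 29 nuclear pore genes, 7 could be tested with 8 probes, and 1 of these was called. Ranbp2, a cytoplasmic filament protein of the pore, had intensities of 1522.5 and 1478.9 in EPC, 1456.9 and 1406.5 in EPC_acLDL, and 951.2 and 1157.0 in EPC_Late. It fell in EPC_Late by 0.82 on the log2 scale from EPC (SE 0.16, adjusted p = 0.014 from limma), with differences of -1.06 to -0.6 over 17 alternatives. The call was lost without EPC replicate 1 or EPC replicate 2. The call was also lost with the test of the study's own methods, both unadjusted and with Benjamini-Hochberg adjustment. The difference of Ranbp2 from EPC_acLDL was -0.48 (adjusted p = 0.094 from limma). The median of the 8 probes was -0.13 between EPC_Late and EPC, beside 23.9% of all probes called in that comparison in either direction.

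Among the lists of heterochromatin, other intermediate filaments, growth arrest and nuclear mechanical response, 5 probes could be tested, and the same 2 of them were called in EPC_Late against EPC, where 23.9% of all probes were called in either direction, and against EPC_acLDL, where 20.9% were. Setdb1, a histone H3 lysine methyltransferase, had intensities of 487.2 and 532.4 in EPC, 586.8 and 590.8 in EPC_acLDL, and 711.9 and 694.1 in EPC_Late. It rose in EPC_Late by 0.86 on the log2 scale from EPC (SE 0.13, adjusted p = 0.0039 from limma), and by 0.38 to 0.94 over 17 alternatives. From EPC_acLDL the difference was 0.62 (SE 0.13, adjusted p = 0.016 from limma, 0.28 to 0.69 over the alternatives), a call lost when any 1 array of either line was left out (highest adjusted p = 0.10 from limma), with the 75th percentile shift and without normalization. It was the only heterochromatin gene of 11 that could be tested.

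Srf, the serum response factor that drives cytoskeletal genes, had intensities of 953.5 and 916.5 in EPC, 890.9 and 903.8 in EPC_acLDL, and 685.2 and 643.7 in EPC_Late. Both EPC_Late arrays were below the other 4. Srf fell in EPC_Late by 1.10 on the log2 scale from EPC, or 2.15-fold (SE 0.14, adjusted p = 0.0024 from limma), with differences of -1.25 to -0.63 over 17 alternatives. From EPC_acLDL the difference was -0.74 (SE 0.14, adjusted p = 0.013 from limma, -0.88 to -0.40 over the alternatives), and this call was lost without EPC_acLDL replicate 1, EPC_acLDL replicate 2 or EPC_Late replicate 2 (highest adjusted p = 0.082 from limma). The remaining 3 probes, of Wwtr1 (a coactivator of the Hippo pathway), Des (desmin) and Cdkn2c (a cyclin-dependent kinase inhibitor), had log2 differences of 0.18, 0.29 and 0.02 between EPC_Late and EPC and were not called; Ankle2 and Wwtr1 were named after their values were seen. None of the 15 probes of these lists was called between EPC_acLDL and EPC, where 3.3% of all probes tested were called.

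**Figure D4:**
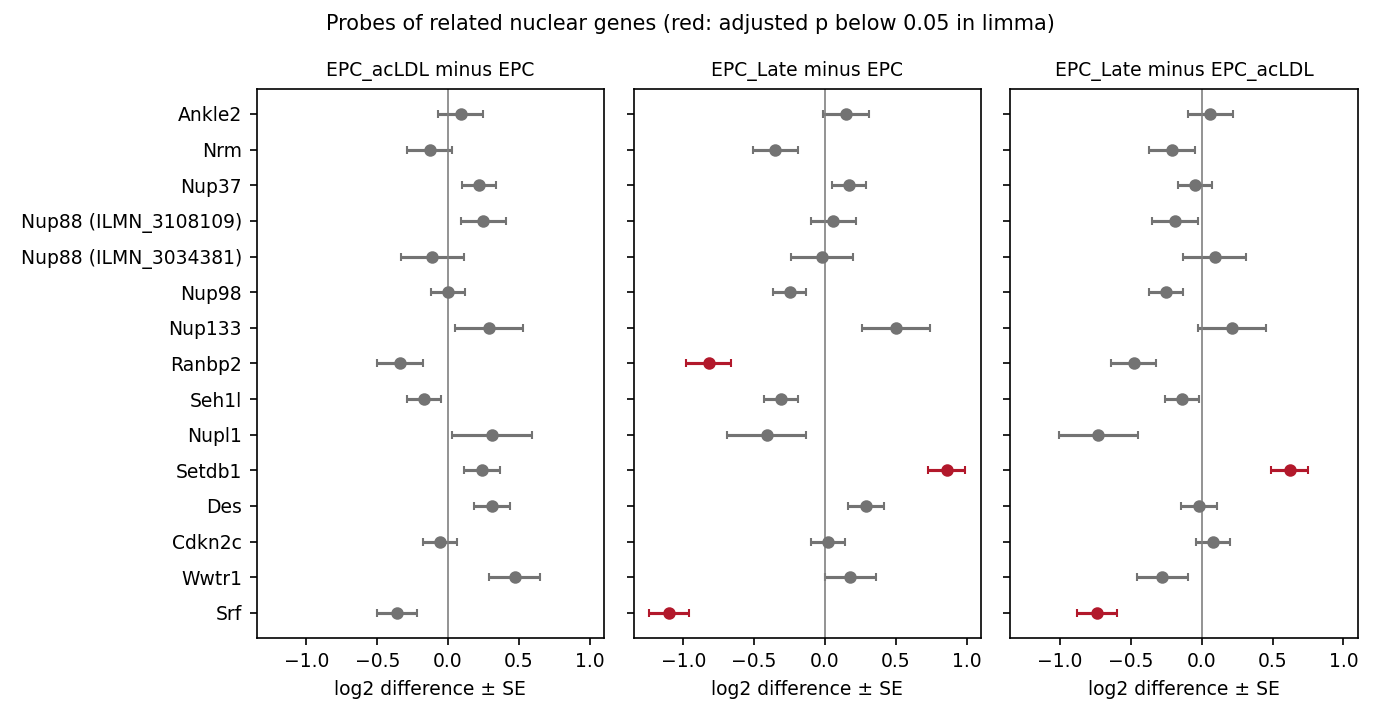
Log2 difference ± SE of the 15 testable probes of related nuclear genes in the 3 comparisons, with probes at an adjusted p below 0.05 from limma in red. Ranbp2 and Srf lie below 0 and Setdb1 above 0 in EPC_Late against EPC. No probe is red in EPC_acLDL against EPC, where 3.3% of all probes tested were called.

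The genes whose pattern over the 6 arrays was most like that of the first Lmna probe were taken by the highest Pearson correlation of log2 signal among 2331 probes. They were Sfrs1 with 2 probes (r = 0.9981 and 0.9960), E2f1 (0.9974), Cdk5r1 (0.9953) and Prkcdbp (0.9950). Sfrs1 is a splicing factor, E2f1 a cell cycle transcription factor, Cdk5r1 an activator of the kinase Cdk5 and Prkcdbp a caveolar protein. The log2 differences of the 4 probes of the first 3 genes between EPC_Late and EPC ran from -1.37 to -1.14. Prkcdbp was above background on neither EPC_Late array and was at least 2.38-fold lower there than in EPC. Banf1 had r = 0.978 with it, and 1.80% of probes were more alike. The second Lmna probe had r = 0.926, and 6.48% of probes were more alike than the other probe of the same gene. The 6 arrays are 3 lines, so each r mainly reflects the difference of EPC_Late and is a description.

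Markers of other cell types were read beside the whole array, where 88.8% of probes were above background on no array. Of 15 probes for fibroblast and mesenchymal genes, 12 were above background on no array, among them those of Col1a1, Col3a1, Dcn and Pdgfra. Col1a2, a collagen chain, had a log2 difference of 0.43 between EPC_Late and EPC (SE 0.12, adjusted p = 0.047 from limma), a call that passed in only 3 of 16 alternatives and was lost, among others, in every fit without 1 array (highest adjusted p = 0.16 from limma), with the replicate block, both other background settings, the 75th percentile shift and limma-trend, and without the filter. Acta2, a smooth muscle actin and the other probe of this list that could be tested, had -0.18 from EPC (SE 0.14, adjusted p = 0.45 from limma) and -0.22 from EPC_acLDL (SE 0.14, adjusted p = 0.35 from limma). The summed intensity of the list was 5037.9 to 5367.1 in EPC, 5108.2 to 5617.4 in EPC_acLDL and 5431.4 to 5785.5 in EPC_Late, sums made mostly of background signal. The mean sums were likewise highest in EPC_Late for the endothelial list (mean log2 of 12.36 in EPC, 12.37 in EPC_acLDL and 12.46 in EPC_Late), the epithelial list (11.39, 11.39 and 11.52) and the leukocyte list (11.87, 11.88 and 11.97), beside 12.34, 12.39 and 12.45 for the fibroblast list. All are sums of deposited, unnormalized intensities. The median intensity of an array was 311.0 and 342.4 in EPC, 304.6 and 345.2 in EPC_acLDL and 336.6 and 358.7 in EPC_Late. Sums of EPC_Late and EPC_acLDL arrays overlapped for the endothelial, fibroblast and leukocyte lists and not for the epithelial list. Of 7 epithelial probes 2 were above background, those of Cdh1 and Cldn7, and of 11 leukocyte probes 1, of Csf1r, none of them called in any comparison, beside 3.3%, 23.9% and 20.9% of all probes called in EPC_acLDL against EPC, EPC_Late against EPC and EPC_Late against EPC_acLDL. Ptprc (CD45) was not above background. The part of any of these cell types in the Lmna and Banf1 values was not tested.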

How the data were processed

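RNA of the 3 lines was hybridized to Illumina MouseRef-8 v2.0 arrays, 2 per line. Per probe, the authors averaged its beads in BeadStudio, by default with local background correction, and deposited a linear, unnormalized intensity per probe and array. The deposited file also holds a detection p-value for each. Probe names are those of the file, and the authors name no genome build, so probes have no coordinates here.

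Intensities were background corrected from the detection p-values, given an offset of 16, quantile normalized and put on the log2 scale by neqc (limma 3.58.1 in R 4.3.3). Tested were 2333 probes whose detection p-values fell under 0.05 on each array of 1 line or more. All 6 arrays entered 1 lmFit and eBayes fit without covariates, and p-values were adjusted by Benjamini-Hochberg over these probes, with calls at 0.05. The steps were tested on simulated intensities with 200 changed probes. Over all probes tested 11.2% of calls were false, above the threshold. Among probes above background on every array it was 3.09% of 97 calls, under it. The members and gene lists were chosen with earlier results of these data known. Named are all lamina probes, up to 4 called probes per list and comparison, the most intense probe of a list without a call, and the 5 probes most like the first Lmna probe. Promoter windows come from RefSeq by gene symbol. Alternatives covered background, scaling, filter, replicate block, limma-trend, single arrays left out and the methods' t-test.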

Additional observations from a re-analysis of the deposited data

How the results depend on the processing

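Lmna was lower in EPC_Late on both probes under the 12 alternatives recomputed for it. These covered background, scaling, the replicate block and single arrays left out. As Lmna was chosen for these low values, the tally is a description and no support. The replicate block leaves a difference of means unchanged in this design. The filters, limma-trend and the t-tests were not run for it. For probe ILMN_3121891 the log2 difference from EPC (-2.71) was -1.89 with an offset of 50 and -1.30 without background correction, and -3.20 to -2.23 with arrays left out. Its difference from EPC_acLDL (-2.29) was -1.54, -1.01 and -2.77 to -1.80 in the same settings. For probe ILMN_2597710 the difference from EPC (-0.96) was -0.93 with uncorrected background, -1.11 after a shift to the 75th percentile, -1.03 unnormalized and -1.0 to -0.93 with arrays left out. From EPC_acLDL (-1.11) it was -1.07, -1.33, -1.34 and -1.15 to -1.07. The median of the probes tested moved to 0.16 with the shift and 0.25 unnormalized in EPC_acLDL against EPC, and to -0.15 and -0.16 in EPC_Late against EPC_acLDL. Where 1 array of a line remained, its spread was taken from the other lines.

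Banf1, the 1 lamina probe called in each EPC_Late comparison, kept its direction throughout. From EPC the count of 1 became 0 with the 75th percentile shift (log2 difference -0.46), without normalization (-0.38), without the detection filter, with the adjusted t-test of the methods and, with arrays left out, ranged from 0 to 1. From EPC_acLDL it became 0 without the filter and with the adjusted t-test, and ranged from 0 to 1. Between EPC_acLDL and EPC the difference of 0.01 changed sign without EPC replicate 2 (-0.04) or EPC_acLDL replicate 1 (-0.06), in a range of -0.06 to 0.09 with arrays left out.

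Calls in the 7 lists of related genes numbered 0, 3 and 2 in EPC_acLDL against EPC, EPC_Late against EPC and EPC_Late against EPC_acLDL, of 15 probes tested and beside 3.3%, 23.9% and 20.9% of all probes. The first was 2 without normalization and 2 with the t-test unadjusted, the second 0 with the adjusted t-test, and the third 4 without background correction, 4 with limma-trend, 0 with the adjusted t-test and 0 to 2 with arrays left out.

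The replicate block changed no call of a lamina probe (1 in each EPC_Late comparison). Deviations of same-numbered arrays correlated at 0.02 to 0.08, and nothing in the labels pairs them. Of the 22 lamina probes, 19 were never above background.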
